A study of Mus musculus with 15 samples.

Results

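Mitochondrial carriers and uncoupling proteins were followed in mouse myotubes that overexpressed PGC-1a, a transcriptional coactivator, in 1 of its 4 isoforms. The genes were those whose symbol begins with Slc25a followed by a digit, plus Ucp1, Ucp2 and Ucp3, taken from array features that carry exactly 1 gene symbol, with 1 feature for each gene. This gave 41 genes among 14860 genes with such a feature, and among 23332 transcript clusters (sets of probes for 1 gene or locus) measured in all. Ucp2, Slc25a5, Slc25a18, Slc25a31, Slc25a43, Slc25a51, Slc25a52, Slc25a53 and Slc25a54 had no cluster of a single symbol and were not analysed here.

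Primary myoblasts, the precursor cells of muscle, were grown and then differentiated into multinucleate myotubes. After 48 h of differentiation all cells were infected with adenovirus (multiplicity of infection 100), fresh medium was given 12 h later, and total RNA was taken about 60 h after infection. The control virus carried GFP alone. The other viruses carried GFP and, from a separate promoter, 1 of the mouse isoforms PGC-1a1 to PGC-1a4, so GFP and the adenovirus were present in all 5 groups. Each group had 3 exon arrays, and since nothing in the labels says that they came from separate cultures, the p-values cover the spread between these arrays only, which may be technical. The source name given for the PGC-1a4 arrays says isoform 1, against their titles, and the titles were followed.

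Proteins of the SLC25 family are made in the cytosol and most are inserted into the inner mitochondrial membrane, where each moves metabolites, nucleotides, cofactors or ions between cytosol and matrix. Uncoupling proteins belong to the same family, and UCP1 lets protons back into the matrix of brown fat mitochondria so that heat is released. In muscle the adenine nucleotide and phosphate carriers supply ATP synthase, the aspartate-glutamate and oxoglutarate carriers form the malate-aspartate shuttle, and the carnitine-acylcarnitine carrier brings long-chain fatty acids in for oxidation. PGC-1a1 is the long isoform known for raising mitochondrial genes, in part through the orphan receptor ERRa, while the shorter PGC-1a4 is known for its part in muscle growth.

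Promoters of 32 of the 41 genes were held in a table of RefSeq sequences (build GRCm38.p6), each running from 250 bases before to 50 bases after an annotated start. They were searched on both strands for 4 motifs. The motifs were TNAAGGTCA, the extended half-site bound by ERRa, its core AAGGTCA (which lies inside the first motif), the cyclic AMP response element TGACGTCA, and CCGGAAG, an ETS-type site. The last 3 motifs were added after the first gave no match. TNAAGGTCA was in the windows of 0 of the 32 genes, against 1.43% of 27025 genes with a promoter. AAGGTCA was in 1 (3.12%, against 5.38% of all genes), TGACGTCA in 2 (6.25%, against 2.03%) and CCGGAAG in 6 (18.8%, against 9.93%). The 6 with CCGGAAG were Slc25a3, Slc25a4, Slc25a17, Slc25a20, Slc25a25 and Slc25a38. A match describes letters in a window and shows no binding.

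Shown here are promoters of 3 genes whose signals differ between the isoforms, with the motif in capitals. Slc25a34, on the minus strand at chr4:141623785-141624084, holds the AAGGTCA match, read on the opposite strand as TGACCTT. Slc25a20, on the plus strand at chr9:108661886-108662185, holds CCGGAAG. One of the promoters of Slc25a25, on the minus strand at chr2:32424017-32424316, holds TGACGTCA.
Slc25a34: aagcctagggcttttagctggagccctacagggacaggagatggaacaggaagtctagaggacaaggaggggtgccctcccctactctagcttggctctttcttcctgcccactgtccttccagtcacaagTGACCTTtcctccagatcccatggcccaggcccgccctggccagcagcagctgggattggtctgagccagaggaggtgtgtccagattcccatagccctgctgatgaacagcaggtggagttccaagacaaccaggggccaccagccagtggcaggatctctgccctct
Slc25a20: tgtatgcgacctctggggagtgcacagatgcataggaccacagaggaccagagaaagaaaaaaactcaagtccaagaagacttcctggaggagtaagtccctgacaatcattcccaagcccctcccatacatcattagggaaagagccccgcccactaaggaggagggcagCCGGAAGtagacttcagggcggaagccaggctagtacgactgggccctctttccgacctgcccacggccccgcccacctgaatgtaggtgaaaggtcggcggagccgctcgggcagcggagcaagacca
Slc25a25: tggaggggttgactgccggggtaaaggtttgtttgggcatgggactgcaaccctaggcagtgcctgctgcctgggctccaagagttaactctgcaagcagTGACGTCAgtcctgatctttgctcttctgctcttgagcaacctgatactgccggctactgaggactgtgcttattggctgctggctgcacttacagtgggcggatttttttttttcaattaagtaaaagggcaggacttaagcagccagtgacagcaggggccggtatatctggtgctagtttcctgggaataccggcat
Slc25a34 and Slc25a20 had their highest mean signals in PGC-1a4, whereas Slc25a25 had its lowest there.

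Values are log2 signals as the authors deposited them, and a difference of 1 log2 is a doubling of signal. Each value pools all probes of a gene and can shift with exon usage too. Signals of different genes are not compared with each other, because probes differ in brightness. The array medians ran from 5.476 to 5.659 log2, and 31 of the 41 genes lay above the median of their array on 15 of 15 arrays. Slc25a2, Slc25a14, Slc25a21, Slc25a27, Slc25a41, Slc25a48 and Ucp1 lay below it on all 15, and Slc25a21 lay below the lower quartile on all 15. Ppargc1a, which encodes PGC-1a, read 8.12 to 8.88 log2 in GFP, 12.55 to 12.67 in PGC-1a1 and 10.34 to 10.61 in PGC-1a4. In PGC-1a2 it read 8.85 to 8.90 and in PGC-1a3 8.80 to 9.15, so this cluster does not separate those isoforms from the control and does not check their labels. GFP replicate 2 stood apart, with correlations over all clusters of 0.982 and 0.983 to the other GFP arrays, which correlated at 0.991 with each other. Its closest array was PGC-1a1 replicate 3 (0.988), and it was the only array that correlated best with one of another group. Of the 41 genes 27 were lower on it than the mean of the other GFP arrays, with a median difference of -0.13 log2, so counts against GFP are also given without it.

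Means of marker lists are given per array, and the lists are not set against each other because their probes differ. The 8 muscle genes averaged 10.94 to 11.16 log2, and 0 of them lay below the lower quartile on any array. For other cell types the means were 4.79 to 5.40 for 7 fibroblast genes, 3.89 to 4.20 for 5 endothelial genes, 5.53 to 5.98 for 8 adipocyte genes and 4.11 to 4.44 for 4 macrophage genes. Fabp4 and Elovl3 of the adipocyte list, Lum of the fibroblast list, and Kdr and Emcn of the endothelial list lay below the lower quartile on all 15 arrays, as did Ptprc and Adgre1 of the macrophage list. Other members of these lists, namely Prdm16, Plin1, Cox8b, Dio2, Col3a1, Col1a2, Col1a1, Thy1, Tek, Cdh5, Pecam1, Cd68 and Csf1r, lay below it on 0 arrays. Adipoq, Cidea, Dcn and Pdgfra did so on 11, 8, 12 and 13 arrays. Group means were 7.31 to 7.49 log2 for Col3a1 and 5.57 to 6.37 for Cd68. The highest signals of the adipocyte list were those of Cox8b (group means of 11.53 to 11.91 log2) and Dio2 (7.003 to 8.85). Of all these markers, those called against GFP by limma were Myog, which fell by 0.46 log2 in PGC-1a1, 0.37 in PGC-1a2 and 0.37 in PGC-1a3, Mb, which fell by 0.45 in PGC-1a2, Myod1, which fell by 0.35 in PGC-1a4, Dio2, which fell by 0.53 in PGC-1a1 and 1.84 in PGC-1a4, Tek, which fell by 0.39 in PGC-1a4, and Cd68, which rose by 0.59 in PGC-1a3. Their part in the changes of the carriers was not tested. In bulk RNA, fewer cells of a type and less RNA per cell cannot be told apart.

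Most of the carriers differed somewhere among the groups. In limma's F-test over the 5 groups 30 of 41 genes passed an adjusted p of 0.05 (73.2%), against 31.3% of all clusters. The 10 genes that passed in no comparison of a pair of groups were Slc25a2, Slc25a16, Slc25a21, Slc25a32, Slc25a36, Slc25a38, Slc25a41, Slc25a47, Slc25a48 and Ucp1. The highest group mean was in PGC-1a1 for 18 genes, in PGC-1a4 for 10, in GFP for 5, in PGC-1a2 for 5 and in PGC-1a3 for 3. The lowest was in PGC-1a2 for 22 genes, in PGC-1a4 for 9, in PGC-1a3 for 7, in GFP for 3 and in PGC-1a1 for 0.

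Against GFP, PGC-1a1 raised 14 of the 41 genes and lowered 1 (limma, adjusted p below 0.05 over all clusters), where 6.84% of all clusters were called, 4.44% higher and 2.4% lower. The median change of the 41 was 0.14 log2, beside -0.03 over all clusters. PGC-1a4 raised 13 and lowered 6, where 14.3% of all clusters were called, 7.05% higher and 7.22% lower, with medians of 0.13 and -0.02. PGC-1a2 lowered 6 and raised 0 (3 higher and 12 lower at an unadjusted p under 0.05), where 9.33% of all clusters were called, 4.56% higher and 4.77% lower, with medians of -0.11 and -0.03. PGC-1a3 raised 2 and lowered 1, where 7.99% of all clusters were called, 5.02% higher and 2.97% lower, with medians of -0.03 and -0.02. As shares of the 41 genes, 36.6% were called in PGC-1a1, 14.6% in PGC-1a2, 7.32% in PGC-1a3 and 46.3% in PGC-1a4. The PGC-1a3 share was near that of all clusters, so its calls are not read as a result about the family. Every called gene had arrays that did not overlap between the groups compared, but so did genes that were not called. Called or not, 24 of the 41 genes did not overlap GFP in PGC-1a1, 16 in PGC-1a2, 11 in PGC-1a3 and 27 in PGC-1a4. The same count over all clusters was not made, so the lack of overlap adds no support to the calls.

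These 4 comparisons share the GFP arrays. Without GFP replicate 2 the calls became 11 higher and 1 lower for PGC-1a1, 9 lower for PGC-1a2, 1 higher and 1 lower for PGC-1a3, and 13 higher and 6 lower for PGC-1a4. The PGC-1a2 count fell to 2 without GFP replicate 1, PGC-1a2 replicate 2 or PGC-1a2 replicate 3 and to 3 without GFP replicate 3, and the PGC-1a3 count fell to 1 without GFP replicate 3, PGC-1a3 replicate 1 or PGC-1a3 replicate 2. With only the 2 groups of a comparison in the fit, 5 calls were left for PGC-1a1, 6 for PGC-1a4 and 0 for PGC-1a2 and PGC-1a3, where 9 and 3 genes had an unadjusted p under 0.05. Centring each array on its median ended the PGC-1a2 calls of Slc25a11, Slc25a12, Slc25a14 and Slc25a23 (adjusted p from 0.068 to 0.11), the PGC-1a1 call of Slc25a37 (0.17) and the PGC-1a4 calls of Slc25a28 (0.25), Slc25a30 (0.053) and Slc25a33 (0.081). Quantile normalization ended the PGC-1a2 call of Slc25a14 (0.12) and the Slc25a22 calls in PGC-1a3 (0.22) and PGC-1a4 (0.069). For a single gene, 0.1 is the smallest two-sided p of an exact permutation test at 3 arrays a group, so the calls rest on limma's fit across all clusters.

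**Figure D1:**
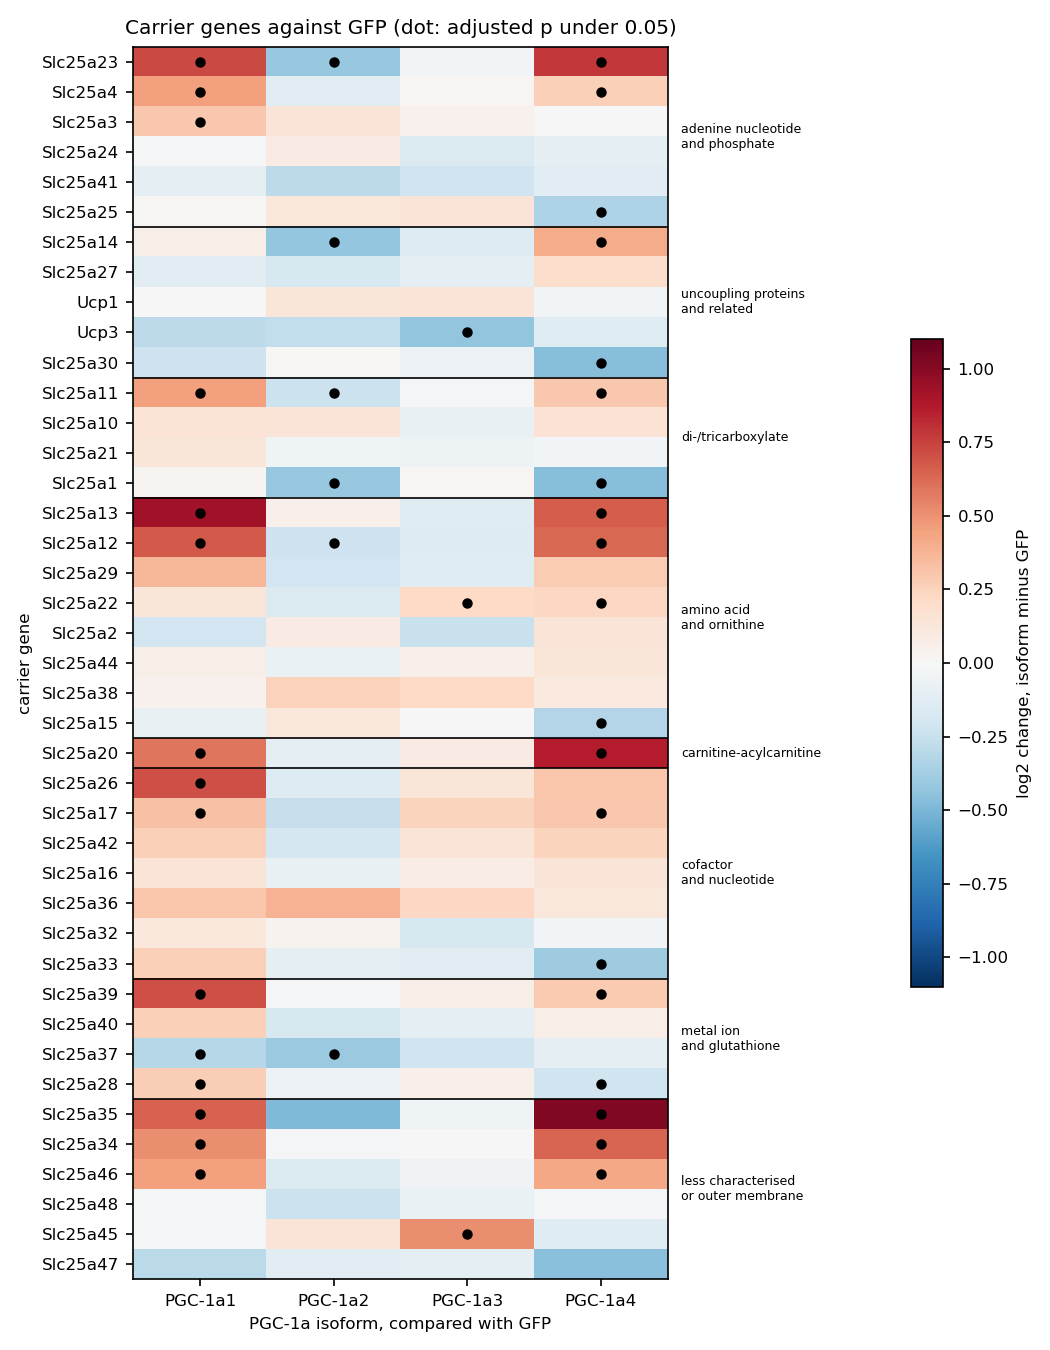
Change of each of the 41 genes (rows, by role) in each isoform against GFP (columns), as log2 change by colour, red higher and blue lower, with a dot where limma's adjusted p was under 0.05. The PGC-1a1 column holds 14 dots in red cells and 1 in a blue cell, the PGC-1a4 column 13 and 6, the PGC-1a3 column 2 and 1, and the PGC-1a2 column 0 and 6.

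In the groups by role below, the share called follows the counts, in the order PGC-1a1 to PGC-1a4. Over all clusters these shares were 6.84%, 9.33%, 7.99% and 14.3%. The groups are small, so a single call makes a large share and is not read as a result about a role. Of 6 carriers for adenine nucleotides and phosphate, 3 rose with PGC-1a1, and with PGC-1a4 2 rose and 1 fell. PGC-1a2 lowered 1 (50%, 16.7%, 0% and 50% called). Slc25a4 is ANT1, the ADP/ATP exchanger of heart and muscle. Slc25a4 read 10.94, 10.71 and 10.87 log2 on the GFP arrays, 11.30, 11.28 and 11.30 with PGC-1a1, 10.69, 10.75 and 10.72 with PGC-1a2, 10.84, 10.87 and 10.88 with PGC-1a3 and 11.13, 11.08 and 11.09 with PGC-1a4. All PGC-1a1 and PGC-1a4 arrays lay above all GFP arrays, and the PGC-1a1 arrays lay above those of PGC-1a4. The rise was 0.45 ± 0.06 log2 (SE, n = 3 per group, 1.37-fold, limma adjusted p = 0.00073) in PGC-1a1 and 0.26 ± 0.06 (1.20-fold, adjusted p = 0.012) in PGC-1a4. The difference between these isoforms was 0.19 log2 (95% interval 0.06 to 0.32, adjusted p = 0.081) and was not called.

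Slc25a3 is the phosphate carrier that feeds ATP synthase. The log2 signals of Slc25a3 were 10.75, 10.77 and 10.83 in GFP, 11.04, 11.01 and 11.18 in PGC-1a1, 10.96, 10.94 and 10.88 in PGC-1a2, 10.84, 10.87 and 10.80 in PGC-1a3 and 10.78, 10.81 and 10.77 in PGC-1a4. Its PGC-1a1 arrays were the highest, and those of PGC-1a4 overlapped GFP. The gene rose by 0.29 ± 0.06 log2 in PGC-1a1 (limma adjusted p = 0.010). Leaving out PGC-1a1 replicate 3 ended that call (0.24 log2, adjusted p = 0.051). Its change in PGC-1a4 was 0.00 log2 (95% interval -0.12 to 0.13). Slc25a3 was higher in PGC-1a1 than in PGC-1a4 by 0.29 ± 0.06 log2 (adjusted p = 0.0091).

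Slc25a23, Slc25a24 and Slc25a25 encode calcium-dependent carriers that exchange ATP-Mg for phosphate, Slc25a41 encodes a relative without the calcium-binding domain, and the 4 genes moved differently. For Slc25a23 the arrays gave 6.23, 5.996 and 6.16 log2 in GFP, 6.89, 6.80 and 6.87 in PGC-1a1, 5.87, 5.59 and 5.68 in PGC-1a2, 6.21, 6.09 and 5.99 in PGC-1a3 and 6.99, 6.82 and 6.90 in PGC-1a4. PGC-1a1 and PGC-1a4 arrays were above GFP, and the PGC-1a2 arrays were below it. Slc25a23 rose by 0.73 ± 0.09 log2 in PGC-1a1 (1.65-fold, limma adjusted p = 0.00043) and by 0.77 ± 0.09 in PGC-1a4 (1.71-fold, adjusted p = 0.00014), and it fell by 0.41 ± 0.09 in PGC-1a2 (adjusted p = 0.014). The fall was not called without GFP replicate 1, GFP replicate 3, PGC-1a2 replicate 2 or PGC-1a2 replicate 3 (adjusted p from 0.051 to 0.065). Slc25a25 read 6.15, 6.04 and 6.21 log2 on the GFP arrays, 6.10, 6.21 and 6.14 with PGC-1a1, 6.24, 6.22 and 6.32 with PGC-1a2, 6.32, 6.25 and 6.26 with PGC-1a3 and 5.79, 5.83 and 5.78 with PGC-1a4. Only the PGC-1a4 arrays of Slc25a25 lay apart, all below the other 12. That fall was 0.34 ± 0.06 log2 (1.26-fold, adjusted p = 0.0029), and Slc25a25 differed by 0.35 ± 0.06 between PGC-1a1 and PGC-1a4 (adjusted p = 0.0038). Slc25a24 and Slc25a41 were not called in any isoform against GFP, with changes from -0.16 to 0.09 log2 and from -0.29 to -0.10 log2.

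**Figure D2:**
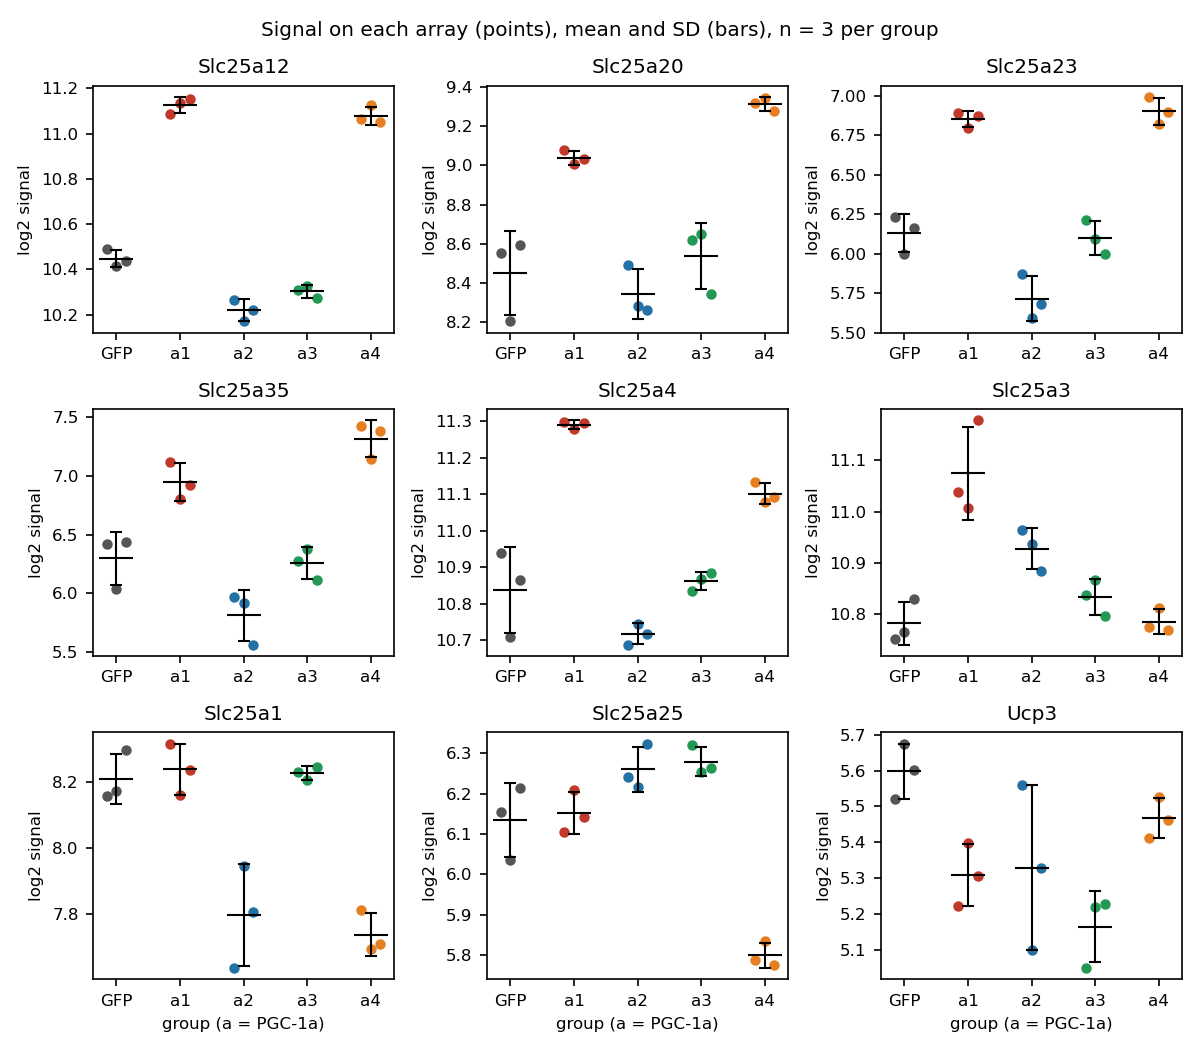
Log2 signal of 9 genes on each of the 15 arrays (points), with the group mean and SD (bars, n = 3), in groups GFP and PGC-1a1 to PGC-1a4 (a1 to a4), each panel on its own scale. PGC-1a1 and PGC-1a4 stand above the other groups for Slc25a12, Slc25a20, Slc25a23, Slc25a35 and Slc25a4, Slc25a3 is highest in PGC-1a1 alone, and Slc25a1 and Slc25a25 are low in PGC-1a4.

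Of 5 uncoupling proteins and their close relatives, 0 were called in PGC-1a1 (limma, 1 lower at an unadjusted p under 0.05). In PGC-1a2 1 fell, in PGC-1a3 1 fell, and in PGC-1a4 1 rose and 1 fell (0%, 20%, 20% and 40% called). Ucp1 is the heat-producing protein of brown fat. Ucp1 read 3.67, 4.45 and 3.65 log2 on the GFP arrays, 3.54, 4.11 and 4.11 with PGC-1a1, 4.12, 4.10 and 3.94 with PGC-1a2, 3.96, 4.11 and 4.11 with PGC-1a3 and 3.88, 3.97 and 3.81 with PGC-1a4. The groups overlapped. The change was -0.00 log2 in PGC-1a1 (95% interval -0.43 to 0.43) and -0.03 in PGC-1a4 (95% interval -0.46 to 0.40). These low signals lay below the lower quartile on 5 of 15 arrays. Changes inside the intervals remain possible. The intervals are not adjusted for the number of clusters, so a change beyond them need not have been called.

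Ucp3 is the uncoupling protein of skeletal muscle. Its signal here was low, below the median of the array on 12 of 15 arrays, though below the lower quartile on 0. The log2 signals of Ucp3 were 5.52, 5.67 and 5.60 in GFP, 5.22, 5.40 and 5.31 in PGC-1a1, 5.56, 5.10 and 5.33 in PGC-1a2, 5.05, 5.22 and 5.23 in PGC-1a3 and 5.41, 5.53 and 5.46 in PGC-1a4. Its PGC-1a1 and PGC-1a3 arrays lay below all GFP arrays, and the PGC-1a2 and PGC-1a4 arrays overlapped them. Ucp3 fell by 0.43 ± 0.10 log2 in PGC-1a3 (1.35-fold, limma adjusted p = 0.024), a call lost without GFP replicate 2, GFP replicate 3, PGC-1a3 replicate 1 or PGC-1a3 replicate 2 (adjusted p from 0.059 to 0.11). The other changes were not called, at -0.29 log2 in PGC-1a1 (95% interval -0.52 to -0.06, adjusted p = 0.14), -0.27 in PGC-1a2 and -0.13 in PGC-1a4.

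Slc25a14 and Slc25a30 encode relatives of the uncoupling proteins known as UCP5 and KMCP1. For Slc25a14 the arrays gave 5.26, 4.79 and 5.03 log2 in GFP, 5.18, 5.07 and 5.02 in PGC-1a1, 4.58, 4.61 and 4.63 in PGC-1a2, 4.84, 5.03 and 4.78 in PGC-1a3 and 5.46, 5.34 and 5.50 in PGC-1a4. Its PGC-1a2 arrays were the lowest and its PGC-1a4 arrays the highest. Slc25a14 fell by 0.42 ± 0.11 log2 in PGC-1a2 (limma adjusted p = 0.028), which was lost without any single GFP or PGC-1a2 array except GFP replicate 2 (adjusted p from 0.074 to 0.088). It rose by 0.41 ± 0.11 in PGC-1a4 (adjusted p = 0.023), lost without GFP replicate 2, GFP replicate 3, PGC-1a4 replicate 1 or PGC-1a4 replicate 3 (adjusted p from 0.062 to 0.084). The direct comparison of PGC-1a2 with PGC-1a4 gave -0.83 ± 0.11 log2 (adjusted p = 9.3e-05) for Slc25a14. Slc25a30 read 6.81, 6.52 and 6.60 log2 on the GFP arrays, 6.60, 6.32 and 6.33 with PGC-1a1, 6.67, 6.66 and 6.63 with PGC-1a2, 6.72, 6.60 and 6.41 with PGC-1a3 and 6.13, 6.09 and 6.30 with PGC-1a4. PGC-1a4 was lowest, and Slc25a30 fell there by 0.47 ± 0.11 log2 (1.39-fold, adjusted p = 0.011). Slc25a27, known as UCP4, was not called against GFP but was lower in PGC-1a1 than in PGC-1a4 by 0.32 ± 0.06 log2 (-0.32, adjusted p = 0.0074).

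Among 4 carriers of di- and tricarboxylates, PGC-1a1 raised 1, PGC-1a2 lowered 2, and PGC-1a4 raised 1 and lowered 1 (25%, 50%, 0% and 50% called). Slc25a11, the oxoglutarate-malate carrier of the malate-aspartate shuttle, and Slc25a1, the citrate carrier that exports citrate for fatty acid synthesis, moved in opposite directions in PGC-1a4. The log2 signals of Slc25a11 were 10.74, 10.74 and 10.67 in GFP, 11.15, 11.14 and 11.21 in PGC-1a1, 10.53, 10.48 and 10.44 in PGC-1a2, 10.67, 10.75 and 10.69 in PGC-1a3 and 11.08, 11.01 and 10.94 in PGC-1a4. PGC-1a1 was highest, PGC-1a4 next and PGC-1a2 lowest, with no overlap among these groups. Slc25a11 rose by 0.45 ± 0.06 log2 in PGC-1a1 (limma adjusted p = 0.00047) and by 0.29 ± 0.06 in PGC-1a4 (adjusted p = 0.0042), and it fell by 0.24 ± 0.06 in PGC-1a2 (adjusted p = 0.023), where the call was lost without GFP replicate 1, PGC-1a2 replicate 2 or PGC-1a2 replicate 3 (adjusted p from 0.067 to 0.093).

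For Slc25a1 the arrays gave 8.16, 8.17 and 8.30 log2 in GFP, 8.32, 8.16 and 8.24 in PGC-1a1, 7.64, 7.95 and 7.81 in PGC-1a2, 8.23, 8.21 and 8.25 in PGC-1a3 and 7.81, 7.69 and 7.71 in PGC-1a4. PGC-1a2 and PGC-1a4 arrays of Slc25a1 lay below those of the other 3 groups. The fall was 0.41 ± 0.08 log2 in PGC-1a2 (1.33-fold, limma adjusted p = 0.0071) and 0.47 ± 0.08 in PGC-1a4 (1.39-fold, adjusted p = 0.0018). In PGC-1a1 the change was 0.03 log2 (95% interval -0.15 to 0.20), and PGC-1a1 exceeded PGC-1a4 by 0.50 ± 0.08 (adjusted p = 0.0024). Slc25a10, the dicarboxylate carrier, and Slc25a21, an oxodicarboxylate carrier at low signal, were not called against GFP.

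Amino acid carriers counted 8, of which 2 rose in PGC-1a1 and 3 rose in PGC-1a4. In addition 1 was lower in PGC-1a4, 1 lower in PGC-1a2 and 1 higher in PGC-1a3 (25%, 12.5%, 12.5% and 50% called). Slc25a12 (aralar) and Slc25a13 (citrin) are the aspartate-glutamate carriers of the malate-aspartate shuttle. Slc25a12 read 10.49, 10.42 and 10.44 log2 on the GFP arrays, 11.09, 11.14 and 11.15 with PGC-1a1, 10.27, 10.17 and 10.22 with PGC-1a2, 10.31, 10.33 and 10.27 with PGC-1a3 and 11.06, 11.12 and 11.05 with PGC-1a4. PGC-1a1 and PGC-1a4 stood above all other arrays, by more than the spread within any group. Slc25a12 rose by 0.68 ± 0.05 log2 in PGC-1a1 (1.60-fold, limma adjusted p = 1.5e-05) and by 0.63 ± 0.05 in PGC-1a4 (1.55-fold, adjusted p = 1.1e-05). Between them the difference was 0.05 log2 (95% interval -0.07 to 0.16). It fell by 0.23 ± 0.05 in PGC-1a2 (adjusted p = 0.018), which was lost without GFP replicate 1, GFP replicate 3, PGC-1a2 replicate 2 or PGC-1a2 replicate 3 (adjusted p from 0.052 to 0.084). The log2 signals of Slc25a13 were 6.52, 6.03 and 6.65 in GFP, 7.38, 7.24 and 7.35 in PGC-1a1, 6.60, 6.40 and 6.35 in PGC-1a2, 6.43, 6.39 and 5.97 in PGC-1a3 and 7.13, 7.08 and 6.98 in PGC-1a4. Again PGC-1a1 and PGC-1a4 were highest and did not overlap each other, while the GFP arrays spread widely. Slc25a13 rose by 0.92 ± 0.16 log2 in PGC-1a1 (1.89-fold, adjusted p = 0.0031), the largest fold of the 41 genes in that group, and by 0.67 ± 0.16 in PGC-1a4 (1.59-fold, adjusted p = 0.012).

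Slc25a22 carries glutamate and Slc25a15 exchanges ornithine for citrulline. For Slc25a22 the arrays gave 7.02, 7.08 and 7.10 log2 in GFP, 7.15, 7.23 and 7.23 in PGC-1a1, 6.89, 6.91 and 6.93 in PGC-1a2, 7.23, 7.23 and 7.38 in PGC-1a3 and 7.29, 7.30 and 7.30 in PGC-1a4. PGC-1a3 and PGC-1a4 lay above GFP by small margins, as did PGC-1a1, which was not called. The rise was 0.22 ± 0.06 log2 in PGC-1a3 (limma adjusted p = 0.038) and 0.23 ± 0.06 in PGC-1a4 (adjusted p = 0.018). The first of these calls for Slc25a22 was lost without any of 12 arrays, namely all but the replicate 1 arrays of PGC-1a1, PGC-1a2 and PGC-1a4 (adjusted p from 0.053 to 0.11), and the second without GFP replicate 1, PGC-1a4 replicate 2 or PGC-1a4 replicate 3 (0.052 to 0.064). Slc25a15 read 7.13, 7.21 and 7.09 log2 on the GFP arrays, 7.08, 7.01 and 7.09 with PGC-1a1, 7.36, 7.16 and 7.27 with PGC-1a2, 7.15, 7.11 and 7.14 with PGC-1a3 and 6.79, 6.91 and 6.76 with PGC-1a4. Its PGC-1a4 arrays were below all others. Slc25a15 fell there by 0.32 ± 0.07 log2 (1.25-fold, adjusted p = 0.0063). Slc25a29, a carrier of basic amino acids, had its highest signals in PGC-1a1 and PGC-1a4 but was not called against GFP (0.37 log2, adjusted p = 0.063, and 0.28 log2, adjusted p = 0.12). Slc25a2, Slc25a38 and Slc25a44, carriers of ornithine, glycine and branched-chain amino acids, were not called against GFP.

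Slc25a20, the carnitine-acylcarnitine carrier, rose with both PGC-1a1 and PGC-1a4. The log2 signals of Slc25a20 were 8.55, 8.20 and 8.60 in GFP, 9.08, 9.01 and 9.03 in PGC-1a1, 8.49, 8.28 and 8.26 in PGC-1a2, 8.62, 8.65 and 8.34 in PGC-1a3 and 9.32, 9.34 and 9.28 in PGC-1a4. The PGC-1a4 arrays were the highest, those of PGC-1a1 next, and the other 3 groups overlapped. Slc25a20 rose by 0.59 ± 0.11 log2 in PGC-1a1 (1.50-fold, limma adjusted p = 0.0065) and by 0.86 ± 0.11 in PGC-1a4 (1.82-fold, adjusted p = 0.00025). The difference of PGC-1a1 from PGC-1a4 was -0.27 log2 (95% interval -0.52 to -0.03, adjusted p = 0.17) and was not called.

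Carriers of cofactors and nucleotides numbered 7. PGC-1a1 raised 2 of them, PGC-1a4 raised 1 and lowered 1, and PGC-1a2 and PGC-1a3 changed 0 by limma (28.6%, 0%, 0% and 28.6% called). At an unadjusted p under 0.05, 1 was higher and 1 lower in PGC-1a2 and 1 was higher in PGC-1a3. Slc25a26 imports S-adenosylmethionine, the methyl donor of mitochondrial methylation. For Slc25a26 the arrays gave 6.31, 6.53 and 6.35 log2 in GFP, 7.08, 7.16 and 7.07 in PGC-1a1, 6.39, 6.29 and 6.07 in PGC-1a2, 6.69, 6.53 and 6.36 in PGC-1a3 and 6.73, 6.64 and 6.74 in PGC-1a4. All PGC-1a1 arrays were above the other 12. The rise was 0.71 ± 0.10 log2 (1.63-fold, limma adjusted p = 0.00096), against 0.31 ± 0.10 in PGC-1a4, which was not called (adjusted p = 0.060). Slc25a26 differed by 0.40 ± 0.10 between the isoforms (adjusted p = 0.026), a call lost without any single PGC-1a1 or PGC-1a4 array (adjusted p from 0.059 to 0.098).

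Slc25a33 and Slc25a36 carry pyrimidine nucleotides. Slc25a33 read 7.24, 6.89 and 7.02 log2 on the GFP arrays, 7.39, 7.29 and 7.27 with PGC-1a1, 6.86, 6.99 and 6.98 with PGC-1a2, 7.04, 6.92 and 6.84 with PGC-1a3 and 6.70, 6.75 and 6.53 with PGC-1a4. PGC-1a1 was the highest group and PGC-1a4 the lowest. Slc25a33 fell by 0.39 ± 0.10 log2 in PGC-1a4 (1.31-fold, limma adjusted p = 0.015), lost without GFP replicate 1 or PGC-1a4 replicate 3 (adjusted p of 0.058 and 0.070). Its change in PGC-1a1 was 0.26 log2 and not called, and the 0.65 ± 0.10 log2 between PGC-1a1 and PGC-1a4 was the largest isoform difference of that pair (1.57-fold, adjusted p = 0.0014). Slc25a36, like Slc25a16, Slc25a32 and Slc25a42, was not called against GFP. Slc25a17, a peroxisomal carrier of coenzyme A and related cofactors, rose by 0.32 ± 0.08 in PGC-1a1 (adjusted p = 0.026) and 0.30 ± 0.08 in PGC-1a4 (adjusted p = 0.021). Both Slc25a17 calls failed once GFP replicate 2 was left out (0.075 and 0.066). The first also failed without replicate 1 or 2 of PGC-1a1 (0.082 and 0.10), and the second without replicate 1 or 2 of PGC-1a4 (0.068 and 0.058).

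Of 4 carriers of metal ions and glutathione, 2 rose and 1 fell in PGC-1a1. In PGC-1a2 1 fell, and in PGC-1a4 1 rose and 1 fell (75%, 25%, 0% and 50% called). Slc25a39 imports glutathione. The log2 signals of Slc25a39 were 9.89, 9.75 and 9.999 in GFP, 10.63, 10.55 and 10.58 in PGC-1a1, 9.86, 9.83 and 9.92 in PGC-1a2, 9.99, 9.97 and 9.88 in PGC-1a3 and 10.14, 10.21 and 10.15 in PGC-1a4. PGC-1a1 was highest and PGC-1a4 second, both clear of GFP. Slc25a39 rose by 0.71 ± 0.07 log2 in PGC-1a1 (1.63-fold, limma adjusted p = 5.9e-05) and by 0.29 ± 0.07 in PGC-1a4 (1.22-fold, adjusted p = 0.013, lost without PGC-1a4 replicate 2 at 0.052), and it was higher in PGC-1a1 than in PGC-1a4 by 0.42 ± 0.07 (adjusted p = 0.0025). Its paralog Slc25a40 was not called against GFP.

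Slc25a37 and Slc25a28 are the mitochondrial iron importers mitoferrin 1 and mitoferrin 2. For Slc25a37 the arrays gave 8.93, 8.72 and 8.90 log2 in GFP, 8.58, 8.48 and 8.55 in PGC-1a1, 8.38, 8.46 and 8.48 in PGC-1a2, 8.69, 8.55 and 8.65 in PGC-1a3 and 8.65, 8.74 and 8.86 in PGC-1a4. PGC-1a1, PGC-1a2 and PGC-1a3 arrays lay below all GFP arrays, and the change in PGC-1a3 was not called. Slc25a37 fell by 0.31 ± 0.08 log2 in PGC-1a1 (limma adjusted p = 0.028) and by 0.41 ± 0.08 in PGC-1a2 (1.33-fold, adjusted p = 0.0058). The PGC-1a1 call for Slc25a37 was lost without GFP replicate 1, GFP replicate 3 or any PGC-1a1 array (adjusted p from 0.058 to 0.11). Slc25a28 read 0.27 ± 0.07 log2 above GFP in PGC-1a1 (adjusted p = 0.031) and -0.22 ± 0.07 from GFP in PGC-1a4 (adjusted p = 0.046). Both of these Slc25a28 calls were unsteady: the first was lost without any single GFP array or PGC-1a1 replicate 1 or 2 (adjusted p from 0.052 to 0.12), the second without any of 11 arrays (0.051 to 0.16), the exceptions being GFP replicate 2, PGC-1a1 replicate 3, PGC-1a3 replicate 3 and PGC-1a4 replicate 2. The direct difference of Slc25a28 between PGC-1a1 and PGC-1a4, 0.49 ± 0.07 log2 (1.40-fold, adjusted p = 0.00095), was kept without each array in turn.

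The remaining 6 genes encode carriers of less settled function or of the outer membrane. Of them 3 rose in PGC-1a1, 1 in PGC-1a3 and 3 in PGC-1a4 (50%, 0%, 16.7% and 50% called). Slc25a35 read 6.42, 6.04 and 6.44 log2 on the GFP arrays, 7.12, 6.81 and 6.92 with PGC-1a1, 5.96, 5.91 and 5.56 with PGC-1a2, 6.28, 6.38 and 6.11 with PGC-1a3 and 7.43, 7.14 and 7.39 with PGC-1a4. PGC-1a4 was highest and PGC-1a1 second, with PGC-1a2 lowest. Slc25a35 rose by 1.02 ± 0.14 log2 in PGC-1a4 (2.03-fold, limma adjusted p = 0.00047), the largest change of any of the 41 genes against GFP. In PGC-1a1 the rise was 0.65 ± 0.14 (1.57-fold, adjusted p = 0.016), and that call was lost without GFP replicate 2, PGC-1a1 replicate 1 or PGC-1a1 replicate 3 (adjusted p from 0.051 to 0.071). Its change in PGC-1a2 was -0.49 ± 0.14 and not called (adjusted p = 0.053). Slc25a34 read 5.88, 5.90 and 5.62 log2 on the GFP arrays, 6.18, 6.69 and 6.05 with PGC-1a1, 5.83, 5.78 and 5.75 with PGC-1a2, 5.85, 5.66 and 5.87 with PGC-1a3 and 6.50, 6.42 and 6.39 with PGC-1a4. PGC-1a1 replicate 2 stood above the other PGC-1a1 arrays of Slc25a34, and the PGC-1a4 arrays were close together above GFP. Slc25a34 rose by 0.64 ± 0.14 log2 in PGC-1a4 (1.56-fold, adjusted p = 0.0077) and by 0.51 ± 0.14 in PGC-1a1 (1.42-fold, adjusted p = 0.046). The PGC-1a1 call was lost without any array except PGC-1a1 replicate 3 (adjusted p from 0.056 to 0.17), and its value was 0.32 log2 without PGC-1a1 replicate 2.

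Slc25a46, an outer membrane protein tied to mitochondrial shape, rose by 0.45 ± 0.08 log2 in PGC-1a1 (limma adjusted p = 0.0046) and by 0.43 ± 0.08 in PGC-1a4 (adjusted p = 0.0032). For Slc25a45 the arrays gave 6.88, 6.68 and 6.77 log2 in GFP, 6.92, 6.81 and 6.56 in PGC-1a1, 7.07, 6.88 and 6.80 in PGC-1a2, 7.28, 7.29 and 7.30 in PGC-1a3 and 6.59, 6.55 and 6.79 in PGC-1a4. PGC-1a3 alone was high for Slc25a45, with arrays above all others, and the rise there was 0.51 ± 0.10 log2 (1.42-fold, adjusted p = 0.011). Slc25a45 was lower in PGC-1a1 than in PGC-1a3 by 0.53 ± 0.10 (-0.53, adjusted p = 0.0049), and PGC-1a3 exceeded PGC-1a4 by 0.64 ± 0.10 (adjusted p = 0.00056). Slc25a47 and Slc25a48 were not called in any comparison.

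Compared directly, PGC-1a1 and PGC-1a4 differed in fewer of these genes than either did from PGC-1a2, and the same held over all clusters. The shares called were 22% of the 41 genes against 9.08% of all clusters in this pair. They were 48.8% against 19.2% for PGC-1a1 and PGC-1a2, and 58.5% against 25.2% for PGC-1a2 and PGC-1a4. PGC-1a1 exceeded PGC-1a4 in 8 genes and was lower in 1, where 9.08% of all clusters were called, 5.29% higher and 3.79% lower. The higher genes were Slc25a1, Slc25a3, Slc25a15, Slc25a25, Slc25a26, Slc25a28, Slc25a33 and Slc25a39, and the lower gene was Slc25a27. The smallest of the higher differences, 0.24 ± 0.07 log2 for Slc25a15 (limma adjusted p = 0.043), was lost without any of 11 arrays (adjusted p from 0.054 to 0.16), which were all but GFP replicate 2, PGC-1a2 replicates 1 and 2 and PGC-1a4 replicate 2. It was also lost with quantile normalization (0.12) and median centring (0.057). The other 32 genes were not called, and their intervals do not show that the isoforms act alike. For Slc25a35, the gene with the largest uncalled difference, PGC-1a1 minus PGC-1a4 was -0.37 log2 with a 95% interval of -0.68 to -0.06.

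**Figure D3:**
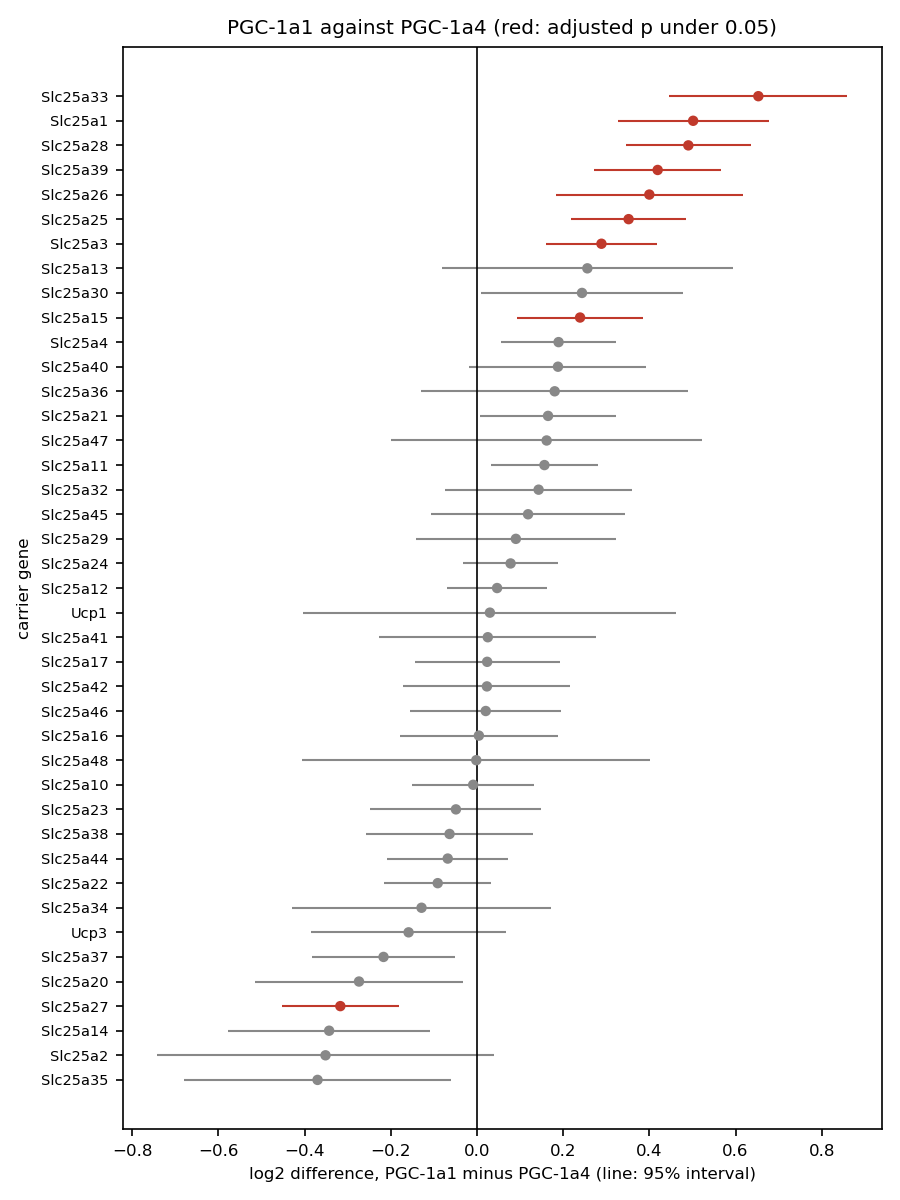
Difference in log2 signal between PGC-1a1 and PGC-1a4 for each of the 41 genes (points), with its 95% interval (lines), sorted by size, red where limma's adjusted p was under 0.05. The 8 red points to the right of 0 run from 0.24 for Slc25a15 to 0.65 for Slc25a33, and the red point to the left is Slc25a27 at -0.32.

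Against PGC-1a2, PGC-1a1 was higher in 20 genes and lower in 0 (3 lower at an unadjusted p under 0.05 in limma), where 19.2% of all clusters were called, 10.2% higher and 9% lower, and the median difference of the 41 was 0.23 log2. The largest were Slc25a23 at 1.14 ± 0.09 log2 (2.20-fold, adjusted p = 5.0e-06) and Slc25a35 at 1.13 ± 0.14 (2.20-fold, adjusted p = 0.00013). In this pair Slc25a33 was lost without replicate 1 of PGC-1a1 or PGC-1a2 (0.063 and 0.062). Slc25a34 was lost without PGC-1a2 replicate 2 or 3 (0.054 and 0.061). PGC-1a2 against PGC-1a4 gave 19 genes lower (46.3%) and 5 higher (12.2%), where 25.2% of all clusters were called, 12.6% in each direction, with a median of -0.22 log2. The share of higher genes was thus near that of all clusters. Slc25a35 was 2.84-fold higher in PGC-1a4 (adjusted p = 8.0e-06) and Slc25a23 2.28-fold (adjusted p = 1.5e-06), Slc25a20 1.96-fold (adjusted p = 3.6e-05) and Slc25a12 1.81-fold (adjusted p = 3.2e-07). The 5 genes higher in PGC-1a2 than in PGC-1a4 were Slc25a15, Slc25a24, Slc25a25, Slc25a30 and Slc25a33, by 0.19 to 0.48 log2. Of these, Slc25a24 was lost without PGC-1a2 replicate 1 or 3 (adjusted p of 0.060 and 0.057), and Slc25a33 without any of 10 arrays (0.052 to 0.18), all but GFP replicates 1 and 2, PGC-1a3 replicates 1 and 3 and PGC-1a4 replicate 2. Median centring also ended both calls (0.096 and 0.14). Among the lower genes it ended that of Slc25a44 (0.086), which was also lost without replicate 2 or 3 of PGC-1a2 or PGC-1a4 (0.061 to 0.13).

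Against PGC-1a3, PGC-1a1 was higher in 16 genes and lower in 1, where 14% of all clusters were called, 6.48% higher and 7.56% lower, and the largest rise was that of Slc25a13 at 1.06 ± 0.16 log2 (2.08-fold, limma adjusted p = 0.00074). Of the higher genes, Slc25a10 was lost without any single PGC-1a1 or PGC-1a3 array (adjusted p from 0.061 to 0.11). Slc25a33 and Slc25a40 were lost without PGC-1a1 replicate 1 or 2 or PGC-1a3 replicate 2 or 3 (0.051 to 0.077). Slc25a3 was lost without PGC-1a1 replicate 3 or PGC-1a3 replicate 1 or 3 (0.052 to 0.080). Slc25a34 was lost without PGC-1a1 replicate 2 or PGC-1a3 replicate 1 or 2 (0.058 to 0.10). PGC-1a3 against PGC-1a4 gave 14 genes lower (34.1%) and 6 higher (14.6%), where 23% of all clusters were called, 13.2% higher and 9.79% lower. Here too the share of higher genes was near that of all clusters. Slc25a35 led the lower genes at -1.06 ± 0.14 log2 (adjusted p = 0.00015), and the higher ones were Slc25a1, Slc25a15, Slc25a25, Slc25a28, Slc25a30 and Slc25a45, of which Slc25a30 was lost without PGC-1a3 replicate 1 or 2 or PGC-1a4 replicate 1 or 2 (adjusted p from 0.051 to 0.076). Median centring ended the calls of Slc25a28 (0.0503), Slc25a30 (0.052) and Slc25a39 (0.088) in this pair. Among the lower genes, Slc25a39 was also lost without any single PGC-1a3 or PGC-1a4 array (adjusted p from 0.052 to 0.11). Slc25a10 was lost without PGC-1a4 replicate 3 (0.074), and Slc25a4 and Slc25a29 without PGC-1a3 replicate 1 (0.051 and 0.060). PGC-1a2 and PGC-1a3 differed in 8 genes, 7 lower and 1 higher in PGC-1a2, where 9.27% of all clusters were called, 3.76% higher and 5.52% lower, and medians were -0.08 log2 for the 41 genes and -0.01 for all clusters. That count became 4 without PGC-1a2 replicate 2, PGC-1a2 replicate 3, PGC-1a3 replicate 1 or PGC-1a3 replicate 2, and 5 without PGC-1a3 replicate 3. Slc25a17 was the most different, 0.50 ± 0.08 log2 lower in PGC-1a2 (-0.50, adjusted p = 0.0024).

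**Figure D4:**
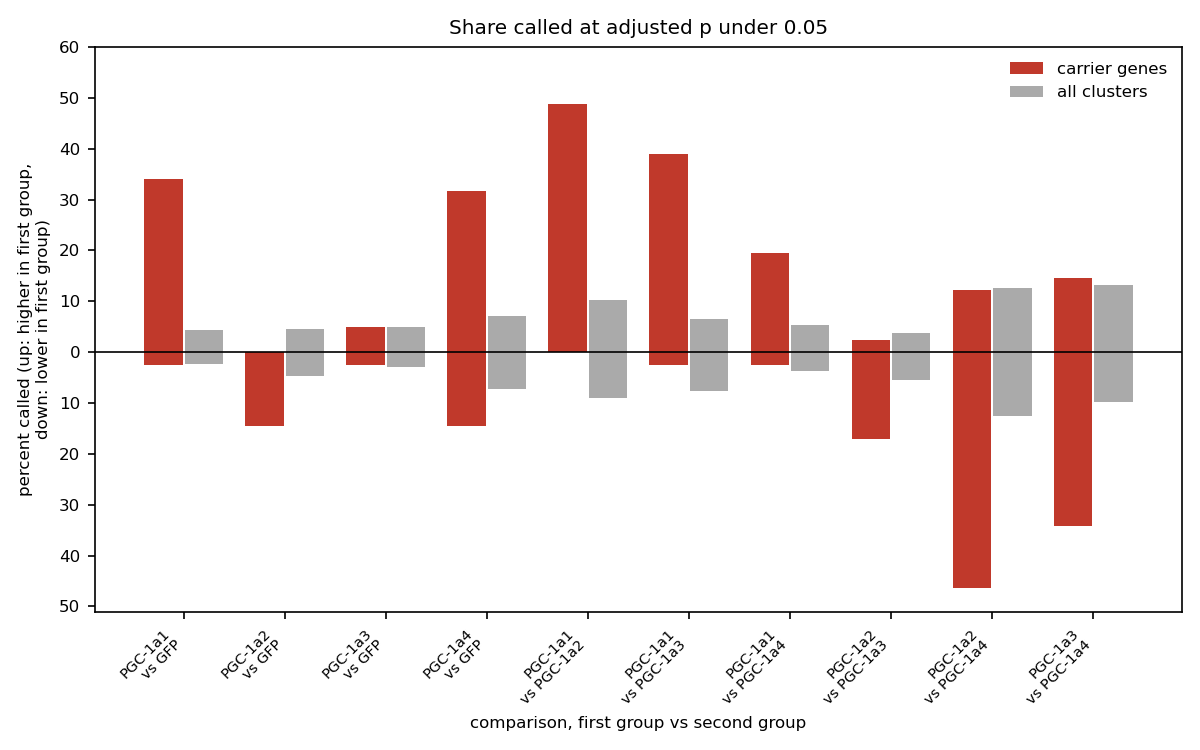
Percent of the 41 carrier genes (red) and of all 23332 clusters (grey) called by limma at an adjusted p under 0.05 in each of 10 comparisons, drawn up where the first group is higher and down where it is lower. On the higher side the red bars exceed the grey in every comparison of PGC-1a1, in PGC-1a4 against GFP and, by little, in PGC-1a3 against PGC-1a4 (14.6% against 13.2%), and on the lower side they do so most in PGC-1a2 and PGC-1a3 against PGC-1a4.

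Genes that work beside the carriers moved as follows against GFP. Of all clusters 6.84% were called in PGC-1a1, 9.33% in PGC-1a2, 7.99% in PGC-1a3 and 14.3% in PGC-1a4. The shares called of the measured enzymes were 50%, 20%, 30% and 50% in the same order. Of 14 enzymes listed, 10 were measured, and 5 rose in PGC-1a1, 2 rose in PGC-1a2, 1 rose and 2 fell in PGC-1a3, and 4 rose and 1 fell in PGC-1a4 (limma, adjusted p below 0.05). Got1, the cytosolic aminotransferase of the malate-aspartate shuttle, rose by 0.72 ± 0.06 log2 in PGC-1a1 (adjusted p = 1.9e-05) and by 0.63 ± 0.06 in PGC-1a4 (adjusted p = 2.1e-05). Cpt1a, which makes the acylcarnitines that SLC25A20 carries, rose in all 4 isoforms, by 0.86 ± 0.06 log2 in PGC-1a1, 0.60 in PGC-1a2, 0.49 in PGC-1a3 and 1.22 in PGC-1a4 (adjusted p of 1.1e-05, 0.00024, 0.0013 and 7.0e-07). The listed enzymes Cpt1b, Got2, Mdh1 and Me1 had no cluster of a single symbol and were not measured. Ckmt2, the mitochondrial creatine kinase of muscle, rose by 0.68 ± 0.10 in PGC-1a1 and 0.88 ± 0.10 in PGC-1a4 and fell by 0.64 ± 0.10 in PGC-1a3 (adjusted p of 0.0011, 8.7e-05 and 0.0027).

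Other transporters of the inner membrane were measured for 11 of 18 listed genes, and 2 rose in PGC-1a1, 1 fell in PGC-1a3, and 5 rose and 2 fell in PGC-1a4. The shares called were 18.2% in PGC-1a1, 0% in PGC-1a2, 9.09% in PGC-1a3 and 63.6% in PGC-1a4. Over all clusters they were 6.84%, 9.33%, 7.99% and 14.3%, so the PGC-1a3 share was near that of all clusters. Abcb10, an ABC transporter, rose by 0.55 ± 0.06 log2 in PGC-1a1 and 0.48 ± 0.06 in PGC-1a4 (limma adjusted p of 0.00016 and 0.00023). Letm1, an ion exchanger, rose by 0.68 ± 0.07 and 0.53 ± 0.07 (adjusted p of 6.0e-05 and 0.00018), and Sfxn1, a serine carrier outside the SLC25 family, fell by 0.45 ± 0.07 in PGC-1a4 (adjusted p = 0.0015). Outer membrane channels were measured for 4 of 4, with 3 higher in PGC-1a1 (75%), 1 lower in PGC-1a2 (25%) and 1 higher in PGC-1a4 (25%). Vdac1, the main metabolite channel of that membrane, rose by 0.33 ± 0.05 log2 in PGC-1a1 and 0.32 ± 0.05 in PGC-1a4, Vdac2 rose by 0.43 ± 0.07 in PGC-1a1, and Tspo fell by 0.53 ± 0.08 in PGC-1a2 (adjusted p of 0.0017, 0.00098, 0.0021 and 0.0014). The machinery that inserts carriers into the inner membrane was measured for 5 of 13 genes, of which 2 rose in PGC-1a1 (40%) and 2 in PGC-1a4 (40%). These were Timm22, the core of the carrier translocase, at 0.50 ± 0.07 log2 in both (adjusted p of 0.00079 and 0.00045), and Timm9, a chaperone of the intermembrane space, at 0.45 ± 0.10 and 0.57 ± 0.10 (adjusted p of 0.014 and 0.0018).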

How the data were processed

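RNA was copied into labelled sense-strand cDNA and hybridised to mouse exon arrays, per the labels' protocols. The deposited table holds the authors' log2 signal for each transcript cluster on each array. The submitters' processing notes name Partek. Not given in the sources used here: its version, the genome build and how signals were normalized. Array positions are therefore not reported. Of 23332 clusters 14996 carried 1 gene symbol, 1019 several and 7317 none, by the platform annotation. All values were used as deposited, and the number of arrays limits the precision.

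A single limma fit (version 3.58.1, R 4.3.3) held the 15 arrays (lmFit, contrasts.fit, eBayes; 10 residual and 2.09 prior degrees of freedom), for 10 pairs of groups and an F-test over 5 groups. Two-sided p-values were Benjamini-Hochberg adjusted across the 23332 clusters of a comparison, and a gene was called below 0.05. The fit was tested on simulated data. All genes of the family could be named, and array values are given for up to 5 called rises and 5 falls of each isoform against GFP plus Ucp1, Ucp3, Slc25a3, Slc25a4, Slc25a12, Slc25a13 and Slc25a20. From related lists up to 3 genes with the smallest F-test p were named. The members and lists were chosen with earlier results of these data known. Alternatives were median centring, quantile normalization, array weights, a replicate block, robust estimation with a variance trend, dropping dim clusters (kept if above percentile 25 on at least 3 arrays), dropping clusters without a single symbol, fitting the 2 compared groups alone, averaging the clusters of a gene (which changed nothing, as 0 members had several), and omitting each array.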

Additional observations from a re-analysis of the deposited data

How the results depend on the processing

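Over the 10 comparisons 141 changes were called; 81 kept their call under all 24 alternatives run, 60 lost it in 1 or more, and 0 changed direction. Of 269 uncalled changes, 78 changed sign and 51 passed the threshold in 1 or more alternatives. In PGC-1a1 against GFP the calls of Slc25a11, Slc25a12, Slc25a23, Slc25a26 and Slc25a39 were never lost, nor in PGC-1a4 against GFP those of Slc25a1, Slc25a12, Slc25a20, Slc25a23, Slc25a34 and Slc25a35. With only the 2 groups in the fit, which has fewer arrays to estimate the spread, the counts were 5 for PGC-1a1, 0 for PGC-1a2, 0 for PGC-1a3 and 6 for PGC-1a4 against GFP (unadjusted p under 0.05 in limma for 9 and 3 genes where the count was 0), and 1 for PGC-1a2 against PGC-1a3. Median centring left 2 in PGC-1a2 against GFP and 3 in PGC-1a2 against PGC-1a3; it moved the median of all clusters by at most 0.07 log2, and over all clusters turned PGC-1a1 against GFP from 1036 higher and 560 lower to 1110 and 214, and PGC-1a4 against GFP from 1646 and 1685 to 1504 and 975. PGC-1a3 against GFP had 5 with only 1-symbol clusters, 6 with a variance trend and robust estimation and 5 with array weights. Array weights also gave 10 in PGC-1a2 against GFP, 15 in PGC-1a1 against PGC-1a4 and 13 in PGC-1a2 against PGC-1a3. The cause of the shifts under centring, trend and weights was not tested. Without each array in turn the counts ran from 10 to 15 for PGC-1a1, 2 to 9 for PGC-1a2, 1 to 3 for PGC-1a3 and 15 to 20 for PGC-1a4 against GFP. Between isoforms they ran from 19 to 21 (PGC-1a1 and PGC-1a2), 13 to 19 (PGC-1a1 and PGC-1a3), 7 to 11 (PGC-1a1 and PGC-1a4), 4 to 9 (PGC-1a2 and PGC-1a3), 21 to 25 (PGC-1a2 and PGC-1a4) and 16 to 21 (PGC-1a3 and PGC-1a4), and for the F-test from 27 to 30. Of 30 same-numbered pairs of arrays 11 had deviations from their group means correlated above 0.1 (r from -0.22 to 0.36), among them all 6 pairs of replicate 1 outside PGC-1a2 (0.19 to 0.32). Since not every pair did, the numbers were not taken as pairs. With the replicate number as a block the counts against GFP were 14, 7, 3 and 18 for PGC-1a1 to PGC-1a4, and the calls of Slc25a34 in PGC-1a1 (adjusted p = 0.053), Slc25a28 in PGC-1a4 (0.056) and Slc25a15 in PGC-1a1 against PGC-1a4 (0.064) were lost. Low signals of Ucp1 and Slc25a21 limit what could be seen for those genes.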
